A study of Homo sapiens with 9 samples.

Results

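The 10 genes described here are CALB2, which encodes calretinin, and 9 genes of the S100 family of small calcium-binding proteins, namely S100A2, S100A4, S100A6, S100A10, S100A11, S100A13, S100A14, S100A16 and S100P, out of 23619 genes in each table of estimated counts. The set was selected on its values, because CALB2 was higher in some of the DIP2C knockout clones than in parental RKO cells and S100A16 differed in clone H9-A4, so the levels of these members against parental RKO are given as a description. RKO is a human colorectal cancer cell line, and DIP2C encodes a disco-interacting protein 2 homolog that was studied as a candidate cancer gene. RNA sequencing asked whether the loss of 1 or both copies of DIP2C changes gene expression. The 9 samples were 2 of parental RKO, labelled parental control, 2 DIP2C-/- clones (E3 and C10) and 5 DIP2C+/- clones (A6-C9, A9-A12, F6-A7, G1-A5 and H9-A4). All cells were grown for 48 h before RNA extraction, and each sample is 1 library.

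The knockout clones carry a deletion in exon 9 of DIP2C that was made by recombinant adeno-associated virus targeting, selection with Geneticin and removal of the selection cassette with Cre. Each clone was established from a single cell, and the DIP2C-/- clones came from a second targeting round in a DIP2C+/- clone. Fewer DIP2C+/- clones are described in the study's text than carry that label here, and whether all labelled DIP2C+/- clones are independent is not given. The DIP2C-/- clones share a lineage, and which labelled clone it runs through is not given in the sources used here. Parental RKO cells did not pass through targeting, selection or single-cell cloning, and there is no clone with intact DIP2C, so an effect of genotype and an effect of cloning cannot be told apart. No source used here says whether the parental samples came from separate cultures, and p-values measure only the spread between these samples.

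S100 proteins are small dimeric EF-hand proteins that bind calcium and then expose a surface for partner proteins such as annexins and cytoskeletal proteins. Most of their genes lie in a cluster on the long arm of chromosome 1 known as the epidermal differentiation complex, and several are known for changed levels in epithelial tumours. Calretinin is a larger EF-hand calcium buffer of neurons and mesothelial cells that is also known from some colon carcinomas.

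The S100A genes lay on the minus strand of chromosome 1 of GRCh37, whose coordinates are those of hg19. S100A10 (chr1:151955391-151966335) and S100A11 (chr1:152004982-152020383) lay apart from the others. S100A6 (chr1:153507075-153508720), S100A4 (chr1:153516089-153522612), S100A2 (chr1:153533584-153540366), S100A16 (chr1:153579362-153585621), S100A14 (chr1:153586731-153589462) and S100A13 (chr1:153591263-153603836) followed each other closely. S100P was at chr4:6695605-6698897 and CALB2 at chr16:71392616-71424339, both on the plus strand. S100A13 overlaps S100A1 on the opposite strand, and because no source used here states whether strand was used in counting, reads of this pair may not be separated. S100A4 overlaps S100A3 on the same strand, and how reads that fall in both were assigned is not given. S100A11 has processed copies elsewhere in the genome, and how reads that match both were assigned is not given.

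The bases just upstream of the start sites of S100A16 and S100A6 are shown because these neighbouring genes were high in the same clones. They are from RefSeq on the GRCh38.p14 assembly, 250 bases upstream of each start on the strand of the gene, and the letters CG, which read the same on both strands, are in capitals.
S100A16, first start, chr1:153613138-153613387, minus strand: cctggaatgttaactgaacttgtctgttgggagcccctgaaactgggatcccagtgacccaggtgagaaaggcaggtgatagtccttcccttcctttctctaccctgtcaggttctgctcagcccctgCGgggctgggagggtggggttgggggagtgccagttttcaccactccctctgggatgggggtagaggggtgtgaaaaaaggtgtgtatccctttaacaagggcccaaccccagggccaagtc
S100A16, second start, chr1:153609356-153609605, minus strand: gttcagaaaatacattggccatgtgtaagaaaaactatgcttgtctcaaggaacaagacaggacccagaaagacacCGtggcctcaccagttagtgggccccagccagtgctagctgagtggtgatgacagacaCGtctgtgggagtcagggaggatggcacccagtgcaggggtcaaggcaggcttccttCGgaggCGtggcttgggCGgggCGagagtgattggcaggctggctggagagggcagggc
S100A6, chr1:153535992-153536241, minus strand: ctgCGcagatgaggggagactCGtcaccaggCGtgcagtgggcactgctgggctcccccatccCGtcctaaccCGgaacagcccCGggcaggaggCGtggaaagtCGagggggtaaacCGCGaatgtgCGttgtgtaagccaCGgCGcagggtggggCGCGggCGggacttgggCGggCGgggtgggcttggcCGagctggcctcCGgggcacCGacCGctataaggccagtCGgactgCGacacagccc
The first S100A16 window held 1 CG and the second held 6, against a median of 11 over 35116 windows of this length, of which 93.9% held at least 1. The S100A6 window held 24, so both S100A16 windows were below the median and the S100A6 window was above it. Windows were found for 9 of the 10 members, 13 windows in all. The other members ranged from 3 CG in a window of S100A2 to 24 in that of S100A10, with 15 for S100A11.

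DIP2C itself was read first, as a check of the labels. Levels are given as CPM, the usual counts-per-million share of a library's reads after TMM scaling. DIP2C was at 61.0 and 70.9 CPM in the parental samples, at 17.4 and 22.8 CPM in the DIP2C-/- clones E3 and C10, and at 33.6 CPM in A6-C9, 38.9 in A9-A12, 41.7 in G1-A5, 47.0 in F6-A7 and 56.3 in H9-A4, the DIP2C+/- clones. The groups did not overlap, and H9-A4 was the DIP2C+/- clone nearest to parental RKO. The log2 fold change was -1.71 (SE 0.25, edgeR adjusted p of 0.0998) for DIP2C-/- and -0.60 (SE 0.20, adjusted p of 0.386) for DIP2C+/-, and without H9-A4 the adjusted p-values of edgeR were 0.00103 and 0.0285. The depth implied by the tables was 17134472 to 24863895 reads per library, so 3 reads, taken as the lowest detectable level, correspond to 0.121 to 0.175 CPM.

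H9-A4 stood apart from the other clones. In the model fitted to all 9 samples, edgeR's quasi-likelihood test with Benjamini-Hochberg adjustment called 1 of 15532 tested genes (0.00644%) between DIP2C-/- and parental RKO and 15 (0.0966%) between DIP2C+/- and parental RKO at an adjusted p under 0.05. Without H9-A4 it called 733 of 15390 genes (4.76%) and 1224 (7.95%). These comparisons share the parental samples. The fold changes of the members are therefore given with and without H9-A4. This clone carries the DIP2C+/- label and was left out because its values in these data stood apart. All p-values without H9-A4 depend on that choice, and genes in which it differs gain a smaller spread by it.

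The labelled tissue was checked against marker genes. Of 9 epithelial and colorectal markers, KRT18 (121 to 293 CPM), KRT8 (7.01 to 21.5 CPM) and the intestinal transcription factor CDX2 (15.6 to 19.8 CPM) were found in every sample. CDH1, KRT19, KRT20, VIL1 and LGALS4 stayed under 1 CPM in every sample and EPCAM reached 3.78 CPM in H9-A4. The summed level of 3 mesothelial markers was 0.693 to 2.36 CPM over all 9 samples and that of 3 neuronal markers 0.906 to 2.39 CPM. Neither sum was higher in all clones with high CALB2 than in the other samples. The sums of 4 fibroblast and 4 leukocyte markers were 2.04 to 5.94 CPM and 0.725 to 1.92 CPM. In bulk RNA, fewer cells of a type and less RNA per cell cannot be told apart.

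Calretinin mRNA had a split pattern. CALB2 was at 0.469 and 0.931 CPM in the parental samples, at 12.2 CPM in E3 and 17.1 CPM in C10, and at 10.2 CPM in F6-A7, 0.564 in H9-A4, 0.929 in A9-A12, 0.681 in G1-A5 and 21.3 in A6-C9. Both DIP2C-/- clones and 2 of the 5 DIP2C+/- clones were high, whereas the other 3 DIP2C+/- clones lay between the parental samples. The read numbers behind these values were 11 and 16 in parental RKO, 14 to 22 in the low clones and 199 to 440 in the high clones. Against the pooled parental reads, CALB2 was 18.3 times as high in E3, 25.7 times in C10, 15.4 times in F6-A7 and 32.0 times in A6-C9. In the low clones the ratio was 0.848 in H9-A4, 1.40 in A9-A12 and 1.03 in G1-A5, and each of these had a 95% counting interval that included 1.

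Within the DIP2C+/- group, the order of CALB2 was only in part the reverse of that of DIP2C. A6-C9, with the lowest DIP2C (33.6 CPM), had the highest CALB2, and H9-A4, with the highest DIP2C (56.3 CPM), was low in CALB2. F6-A7, with 47.0 CPM of DIP2C, was high in CALB2, while A9-A12, with 38.9 CPM, and G1-A5, with 41.7 CPM, were not. A relation between the levels of these genes was not tested. The mean log2 fold change of CALB2 was 4.33 (SE 1.68) for DIP2C-/- and 3.21 (SE 1.51) for DIP2C+/-, and without H9-A4 4.33 (SE 1.39) and 3.51 (SE 1.29). The DIP2C+/- value averages 2 kinds of clone.

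**Figure D1:**
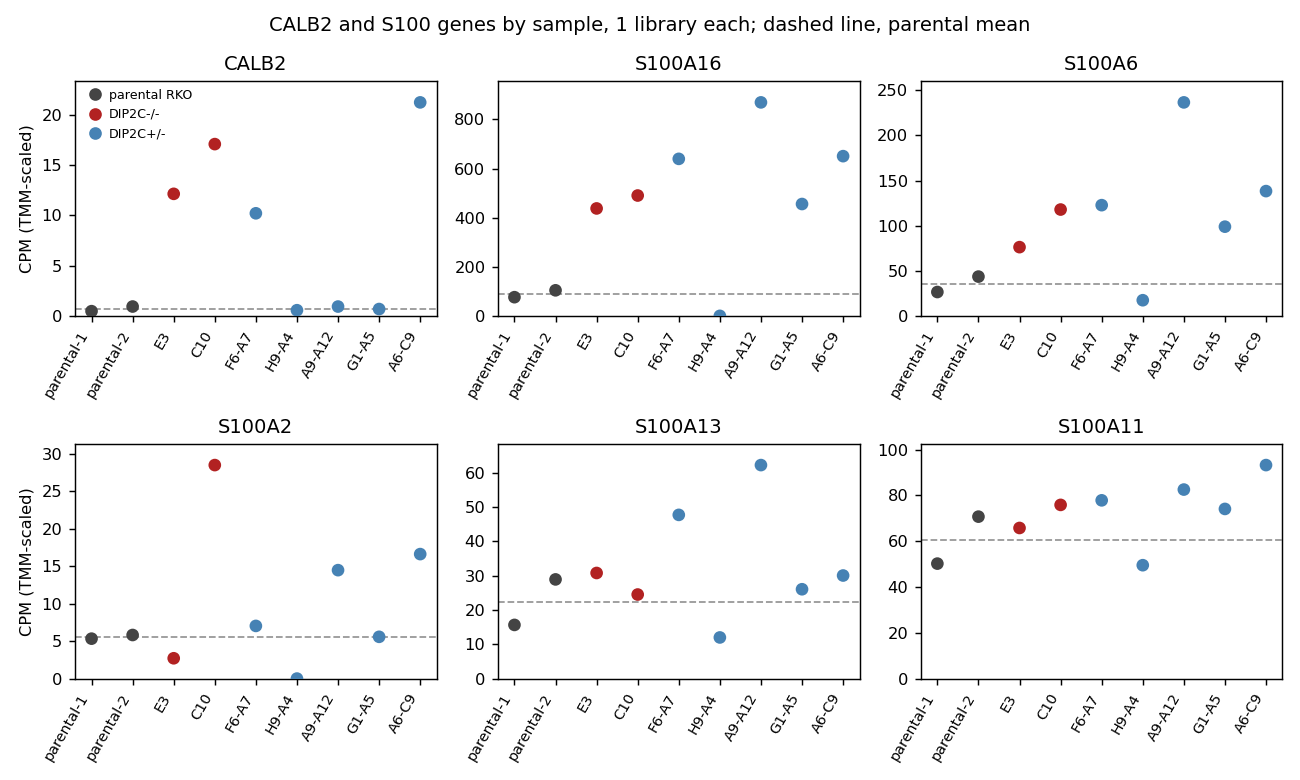
Level of the 6 tested members in each of the 9 samples, in CPM after TMM scaling on a linear axis from 0, with 1 point per library coloured by genotype and a dashed line at the parental mean. CALB2 was at 10.2 to 21.3 CPM in 4 clones and under 1 CPM in the others, and S100A16 was at 438 to 869.6 CPM in 6 clones and at 0.0403 CPM in H9-A4.

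S100A16 is a widely expressed member of the family whose protein binds calcium weakly. It was at 76.1 and 104 CPM in the parental samples, at 438 CPM in E3 and 490.2 CPM in C10, and at 639.6 CPM in F6-A7, 0.0403 in H9-A4, 869.6 in A9-A12, 456 in G1-A5 and 651 in A6-C9. All clones but H9-A4 were above both parental samples, and H9-A4 was below every other sample. Against the pooled parental reads, the 6 high clones were 4.97 to 9.88 times as high, with the lowest ratio in E3 and the highest in A9-A12.

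In H9-A4 a single read of S100A16 was implied, against 1785 and 1789 in the parental samples and 9036 to 20596 in the other clones. The ratio to parental RKO was 0.000458, with a 95% counting interval from 1.16e-05 to 0.00255, or a parental level 2186 times that of the clone with an interval from 392 to 86348. H9-A4 had the second highest read number of the 9 libraries (24669602), so its depth was above that of both parental libraries. The mean log2 fold change of S100A16 was 2.36 (SE 1.65) for DIP2C-/- and 2.54 (SE 1.53) for DIP2C+/- in all 9 samples. Without H9-A4 the values were 2.36 (SE 0.27) and 2.86 (SE 0.26), with smaller standard errors in both comparisons, since all groups share 1 estimate of the spread per gene.

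S100A6, or calcyclin, is a partner of annexins and of the ubiquitin ligase adaptor CACYBP. It was at 26.4 and 43.5 CPM in parental RKO, at 76.2 CPM in E3 and 118 CPM in C10, and at 123 CPM in F6-A7, 17.3 in H9-A4, 237 in A9-A12, 98.9 in G1-A5 and 138 in A6-C9. The 6 clones that were high in S100A16 were again above both parental samples and H9-A4 was again the lowest sample. Its ratio to parental RKO was 7.03 in A9-A12, 4.11 in A6-C9, 3.64 in F6-A7, 3.50 in C10, 2.94 in G1-A5 and 2.26 in E3, against 0.515 in H9-A4. The log2 fold change was 1.47 (SE 0.80) for DIP2C-/- and 1.81 (SE 0.72) for DIP2C+/-, and 1.47 (SE 0.38) and 2.09 (SE 0.36) without H9-A4.

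S100A2, a family member of basal epithelial cells, varied within both knockout genotypes. It was at 5.33 and 5.82 CPM in parental RKO, at 2.71 CPM in E3 and 28.5 CPM in C10, and at 7.03 CPM in F6-A7, 0 in H9-A4, 14.5 in A9-A12, 5.58 in G1-A5 and 16.6 in A6-C9. The DIP2C-/- clones lay on either side of the parental samples, and no read was found in H9-A4 where the parental libraries had 125 and 100 reads. With 3 reads as the limit that a count of 0 allows, the parental level was at least 45.9-fold higher than that of H9-A4. The log2 fold change of 1.49 (SE 1.41) for DIP2C-/- rested on C10, since without C10 it was -1.08, and for DIP2C+/- it was 0.65 (SE 1.201). Without H9-A4 the values were 1.49 (SE 0.81) and 0.97 (SE 0.73).

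S100A13, which takes part in the release of proteins that lack a signal peptide such as FGF1, differed less. It was at 15.7 and 28.9 CPM in parental RKO, at 30.8 CPM in E3 and 24.5 CPM in C10, and at 47.8 CPM in F6-A7, 12 in H9-A4, 62.3 in A9-A12, 26.1 in G1-A5 and 30.1 in A6-C9. F6-A7 and A9-A12 stood above the rest, the DIP2C-/- clones overlapped the parental samples, and H9-A4 was the lowest. The log2 fold change was 0.31 (SE 0.59) for DIP2C-/- and 0.68 (SE 0.51) for DIP2C+/-, and 0.31 (SE 0.40) and 0.90 (SE 0.36) without H9-A4.

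S100A11, a partner of annexin A1 known for a part in keratinocyte growth control, was nearly level. It was at 50.2 and 70.7 CPM in parental RKO, at 65.8 CPM in E3 and 75.8 CPM in C10, and at 77.8 CPM in F6-A7, 49.5 in H9-A4, 82.5 in A9-A12, 74.1 in G1-A5 and 93.2 in A6-C9. H9-A4 was again the lowest of the 9 samples, at 0.841 of the parental level, and A6-C9 the highest at 1.58. The log2 fold change was 0.23 (SE 0.27) for DIP2C-/- and 0.32 (SE 0.23) for DIP2C+/-, and 0.23 (SE 0.19) and 0.44 (SE 0.17) without H9-A4.

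The other 4 members did not pass the filter on low counts and were not tested. S100A4, known as metastasin, had 21 reads in all 9 libraries and at most 0.349 CPM, in a parental sample. S100A10, the annexin A2 partner, had 29 reads, of which 13 were in the first parental sample. S100A14 had 25 reads, of which 11 were in E3 and 7 in A9-A12. S100P had 1 read in E3, 1 in F6-A7 and none elsewhere, and 3 reads were the limit in each library.

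Between genes, levels can be set side by side only per length. In parental RKO the level per kilobase of transcript was 107 CPM for S100A11, 80.6 for S100A6, 76.9 for S100A16, 46.7 for S100A13, 5.71 for S100A2 and 0.482 for CALB2. S100A4 (0.465) and S100A10 (0.457) were not separated from CALB2 by the parental samples. These were at 0.249 and 0.681 for S100A4, 0.826 and 0.0867 for S100A10, and 0.323 and 0.640 for CALB2. S100A14 was at 0.0755, with 0.0405 and 0.110 in the parental samples from 1 and 2 reads, so it was not separated from S100A10. S100P was at 0. The first 3 genes were not separated by the spread of the parental samples, which reached from 89.2 to 126 for S100A11, from 60.9 to 100.3 for S100A6 and from 65.0 to 88.8 for S100A16. In 6 clones the order changed, and S100A16 had the highest level per kilobase of the set, from 373 in E3 to 742 in A9-A12, while S100A11 led in H9-A4 with 87.9.

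Of the 4 tested members that the selection did not name (S100A2, S100A6, S100A11 and S100A13), 0 were called for DIP2C-/- and 0 for DIP2C+/- in all 9 samples, where 0.00644% and 0.0966% of all genes were called. At an unadjusted p under 0.05 the tool had 1970 and 1796 of all genes in these comparisons, and DESeq2 called 297 and 193 of all genes and 0 of the 4 members in each. Without H9-A4, 1 of the 4 was called for DIP2C+/-, S100A6, where 7.95% of all genes were called, and 0 for DIP2C-/-, where 4.76% were. The median log2 fold change of the 6 tested members was 1.48 for DIP2C-/- and 1.24 for DIP2C+/-, against 0.02 over all genes in both. Without H9-A4 the median of the members was 1.48 and 1.53, and 3 and 5 of the 6 were at an unadjusted p under 0.05, in place of 1 and 1. As the members were selected on these comparisons, nothing is read from the counts.

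Clones were compared with clones to ask whether the second copy of DIP2C made a difference. Between DIP2C+/- and DIP2C-/-, 0 of the 6 tested members and 0 of 15532 genes (0%) were called by edgeR, with 865 genes at an unadjusted p under 0.05 and 6 called by DESeq2. The log2 difference between the genotypes was 0.34 (SE 0.66) for S100A6, -0.838 (SE 1.106) for S100A2, 0.37 (SE 0.50) for S100A13 and 0.09 (SE 0.23) for S100A11, with edgeR adjusted p-values of 0.968, 0.941, 0.944 and 0.977. For CALB2 it was -1.12 (SE 1.13) and for S100A16 0.17 (SE 1.32). Without H9-A4 the count was also 0 of 15390 genes (0%), with 1093 at an unadjusted p under 0.05, and the difference of S100A6 was 0.62 (SE 0.33, edgeR adjusted p of 0.725). The other differences without H9-A4 were -0.52 (SE 0.67) for S100A2, 0.59 (SE 0.35) for S100A13, 0.21 (SE 0.17) for S100A11, -0.82 (SE 0.96) for CALB2 and 0.49 (SE 0.22) for S100A16. The standard errors of the 9-sample values allow differences of more than 2-fold in either direction for S100A2, S100A6, S100A16 and CALB2. They also allow a level more than 2-fold higher in DIP2C+/- for S100A13, so the groups are not shown to be alike.

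Each clone was then set against parental RKO by its difference from the mean log2 CPM of the parental pair, with no test because a clone is 1 library. The 6 tested members include CALB2 and S100A16, whose values in these clones chose the set, so nothing is read from their number beside the share of all genes. In E3, 4 of the 6 tested members were past 2-fold (3 higher, and S100A2 lower), where 14.3% of all genes were. The same number was past 2-fold in A6-C9 (14.1% of all genes), F6-A7 (14.1%), A9-A12 (13.8%) and C10 (11.8%), all of them higher. In G1-A5, 2 members were past 2-fold and higher, S100A16 and S100A6, with 12.1% of all genes. In H9-A4, 2 were past 2-fold and lower, S100A16 and S100A2, with 7.39% of all genes. Between the parental samples themselves 7.78% of all genes differed by more than 2-fold, and none of the 6 members did.

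**Figure D2:**
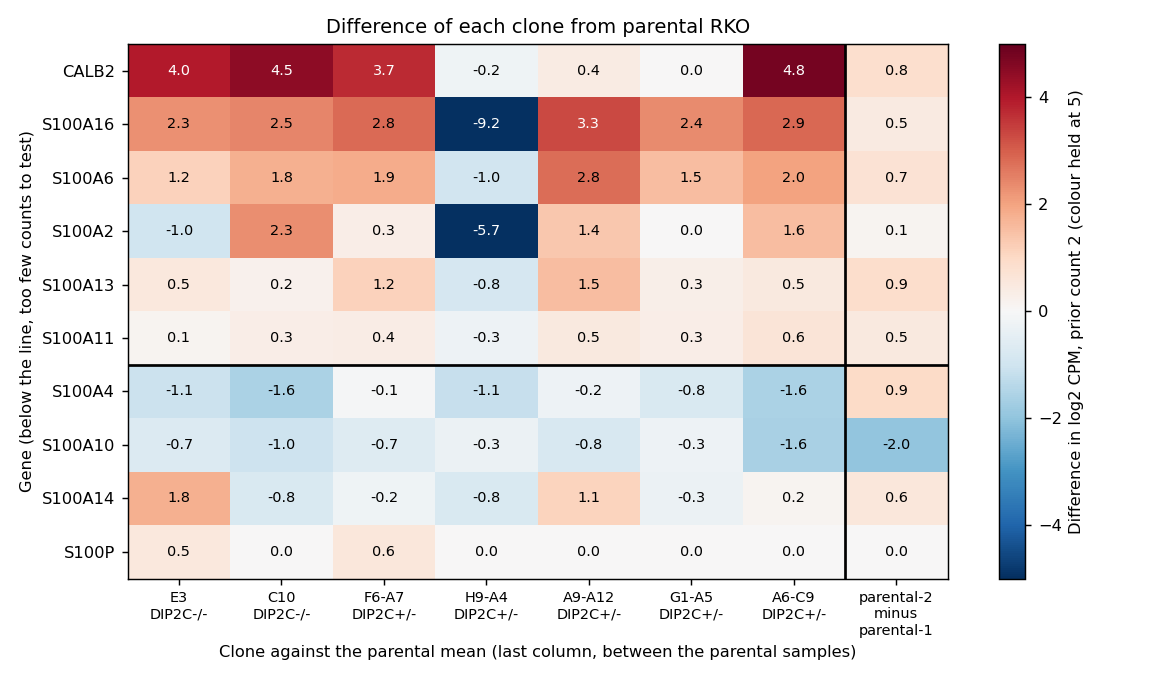
Difference in log2 CPM (prior count of 2) of each of the 10 members between a clone and the parental mean, with the difference between the parental samples in the last column. Cells hold the values, colour is held at 5 in either direction, and members under the line had too few counts to test. S100A16 and S100A6 were higher in every clone but H9-A4, where S100A16 was lower by more than the colour scale shows.

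S100A16, S100A6, S100A2 and S100A13 are neighbours, and H9-A4 was the lowest sample in all of them, so the genes around them were read. Of a list of 23 other genes near the S100 cluster, 20 were tested, and 0 were called in all 9 samples, where 0.00644% and 0.0966% of all genes were. In H9-A4, 2 of these 20 were past 2-fold, both lower (NPR1 and RAB13), where 7.39% of all genes were. The median log2 difference of the 20 was -0.002. S100A13, whose centre is 11.9 kb from the S100A16 start, was at -0.82 on the log2 scale, and CHTOP at 27 kb was at 0.15, SNAPIN at 47.1 kb at -0.03 and ILF2 at 53.3 kb at 0.06. These last 3 genes, the nearest of that list to S100A13, were within 0.2 of their parental level on the log2 scale. S100A1, which overlaps S100A13, was at 0.11 but had only 2 reads in the second parental sample. S100A14, between S100A16 and S100A13, was not tested. NPR1 was at 1.24 CPM in the first parental sample and 10.4 CPM in the second, so its parental mean rests on the second. RAB13 was at 6.44 and 15.7 CPM in these samples, and it was also past 2-fold lower in G1-A5 and A6-C9. Farther away in the same region, FLG was at -2.39 and HRNR at -1.36. Both were under 3 CPM in parental RKO. SLC27A3, a fatty acid transport protein, was called for DIP2C-/- without H9-A4, where it fell by 1.35 on the log2 scale (SE 0.34, edgeR adjusted p of 0.0492). Over all genes, 4.76% were called in that comparison. The zinc transporter gene SLC39A1 was at 242 and 211 CPM in parental RKO, 129 and 112 CPM in E3 and C10 and 146 to 273 CPM in DIP2C+/-, with an edgeR adjusted p of 0.313 for DIP2C-/-. CREB3L4, a membrane-bound transcription factor, was at 5.59 and 8.91 CPM in parental RKO and 4.12 and 2.88 CPM in E3 and C10.

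**Figure D3:**
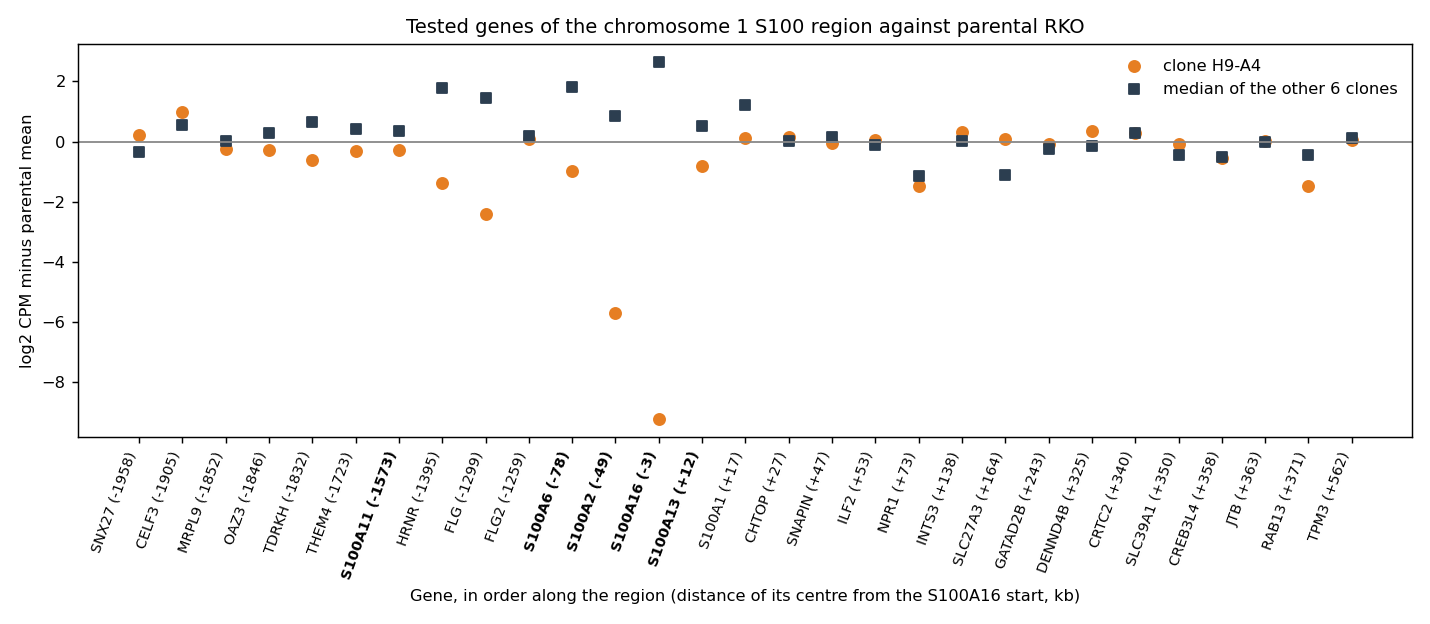
Log2 CPM of the tested genes of the chromosome 1 S100 region minus the parental mean, ordered along the chromosome with the distance of each gene's centre from the S100A16 start in kb, for clone H9-A4 (circles) and for the median of the other 6 clones (squares). S100A16 was at -9.22 in H9-A4 and at 2.65 in the other clones, and CHTOP, 27 kb away, was at 0.15 and 0.02.

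Other genes of calcium signalling were read as whole lists. Over all genes, 0.00644% and 0.0966% were called for DIP2C-/- and DIP2C+/- in all 9 samples. Without H9-A4 the shares were 4.76% and 7.95%, so 0 calls in a list are not read as a result. Of 12 other S100 genes, S100A1 alone was tested, at 0.293 CPM on average in parental RKO, and 0 of 1 was called in any comparison. Of 7 genes for fused S100 proteins, which are large structural proteins of the cornified skin layer, 3 were tested and 0 were called with or without H9-A4. HRNR was at 0.768 and 0.815 CPM in parental RKO, at 2.37 CPM in E3 and 5.06 CPM in C10, and at 3.75 CPM in F6-A7, 0.242 in H9-A4, 1.01 in A9-A12, 0.213 in G1-A5 and 4.01 in A6-C9. The clones with the highest HRNR were the same 4 that had the highest CALB2. FLG, the gene of filaggrin, had 7.34 CPM in F6-A7 and 9.76 CPM in A6-C9 and stayed at or below 1.65 CPM in the other DIP2C+/- clones.

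The median log2 fold change of other EF-hand calcium buffers and sensors was -0.08 for DIP2C-/- and -0.07 for DIP2C+/-, against 0.02 over all genes. Of 44 listed genes 33 were tested, and 0 were called for either genotype in all 9 samples. For DIP2C-/-, 5 were at an unadjusted p under 0.05, beside 1970 of all 15532 genes, and for DIP2C+/- 8, beside 1796. Without H9-A4, 2 were higher and 1 lower in each comparison, where 4.76% and 7.95% of all genes were called. LCP1, the actin bundling protein L-plastin, was higher in both, at 142 to 156 CPM in parental RKO, 407 and 453 CPM in the DIP2C-/- clones and 367 to 787 CPM in the DIP2C+/- clones other than H9-A4, which had 54.8 CPM. Its log2 fold change without H9-A4 was 1.53 (SE 0.31, edgeR adjusted p of 0.0167) for DIP2C-/- and 1.98 (SE 0.29, adjusted p of 0.00189) for DIP2C+/-. CAPN2, the large subunit of m-calpain, was the other, with 1.04 (SE 0.25, edgeR adjusted p of 0.0378) and 1.19 (SE 0.22, adjusted p of 0.00837). Without H9-A4, CIB2, a calcium and integrin binding protein, fell by 1.02 on the log2 scale in DIP2C-/- (edgeR adjusted p of 0.0316), and NUCB2, or nucleobindin, fell by 0.66 in DIP2C+/- (edgeR adjusted p of 0.0473). GCA, or grancalcin, was at 8.15 and 6.81 CPM in parental RKO, 3.34 and 2.77 CPM in E3 and C10 and 0.967 to 10.5 CPM in DIP2C+/-, with the highest value in H9-A4. RCN3, a reticulocalbin of the endoplasmic reticulum, was at 2.64 and 2.15 CPM in parental RKO and 0.678 and 0.853 CPM in E3 and C10, with an edgeR adjusted p of 0.341 for DIP2C-/-.

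Annexins are calcium-dependent membrane-binding proteins and the classical partners of S100 dimers. Of 12 listed genes 8 were tested and 0 were called in all 9 samples. Without H9-A4, ANXA5 was called in both comparisons, at 0.78 (SE 0.17, edgeR adjusted p of 0.0267) for DIP2C-/- and 0.82 (SE 0.15, adjusted p of 0.00843) for DIP2C+/-. Over all genes, 4.76% and 7.95% were called in these comparisons. ANXA1, the partner of S100A11, was at 537 and 600.2 CPM in parental RKO, at 4.79 CPM in E3 and 369 CPM in C10, and at 8.42 CPM in F6-A7, 666 in H9-A4, 26.3 in A9-A12, 23.6 in G1-A5 and 277 in A6-C9. It differed by more within each knockout genotype than between them, and its log2 fold change of -1.61 had an SE of 1.89 for DIP2C-/-. ANXA4 was at 16 and 20.1 CPM in parental RKO and 31.3 and 41.4 CPM in E3 and C10, with an edgeR adjusted p of 0.376, and ANXA9 was at 0.320 to 2.58 CPM in all 9 samples. ANXA2, the partner of S100A10, was at 480 to 841 CPM in all 9 samples, while S100A10 itself had at most 13 reads in a library.

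Of 24 listed binding partners and receptors of S100 proteins, 23 were tested and 0 were called in all 9 samples. Without H9-A4, 22 were tested, and 4.76% of all genes were called for DIP2C-/- and 7.95% for DIP2C+/-. BSG, or basigin, and DLC1, a GTPase-activating protein, were then higher in both comparisons, and EZR, the membrane linker ezrin, was lower in DIP2C-/-. DLC1 was at 161 and 166 CPM in parental RKO, at 905 and 912 CPM in the DIP2C-/- clones and at 624 to 1022 CPM in the DIP2C+/- clones other than H9-A4, which had 4.15 CPM. The same 6 clones as for S100A16 were above parental RKO, and H9-A4 was again the lowest sample. PLAT, the tissue plasminogen activator and a ligand of S100A10, was at 3.11 and 5.41 CPM in parental RKO, 6.17 to 11.5 CPM in these 6 clones and 0.564 CPM in H9-A4. IQGAP1, a scaffold protein that binds S100 proteins, was at 249 and 254 CPM in parental RKO, at 22.2 CPM in E3 and 29.5 CPM in C10, and at 29.2 CPM in F6-A7, 224 in H9-A4, 265 in A9-A12, 252 in G1-A5 and 33.3 in A6-C9. The 4 clones low in IQGAP1 were the 4 clones high in CALB2, and its log2 fold change of -3.28 (SE 0.98) for DIP2C-/- had an edgeR adjusted p of 0.318 in all 9 samples and 0.0805 without H9-A4. AGER, the gene of the receptor RAGE, was at 2.71 to 5.41 CPM in all 9 samples.

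The genes most like CALB2 were taken as the 5 with the highest Pearson correlation of log2 CPM with it over the 9 samples, among all genes that passed the filter. The correlation is used only as a measure of likeness, since the samples share lineages and libraries. They were PDE4DIP (r of 0.991), GPR153 (0.989), KRTAP4-9 (0.987), LINC00460 (0.985) and KIAA0368 (0.983). PDE4DIP was at 33.1 and 34.7 CPM in parental RKO, at 699 and 908 CPM in E3 and C10, at 471 CPM in F6-A7 and 799 CPM in A6-C9, and at 27.5 to 37.7 CPM in the other 3 DIP2C+/- clones. It had the same split of clones as CALB2 at a higher level. KRTAP4-9 was at 0 in both parental samples and in H9-A4, A9-A12 and G1-A5, and at 1.13 to 3.09 CPM in the 4 others. KIAA0368 differed far less, from 435 to 476 CPM in the low samples and from 538 to 605 CPM in the high ones.

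**Figure D4:**
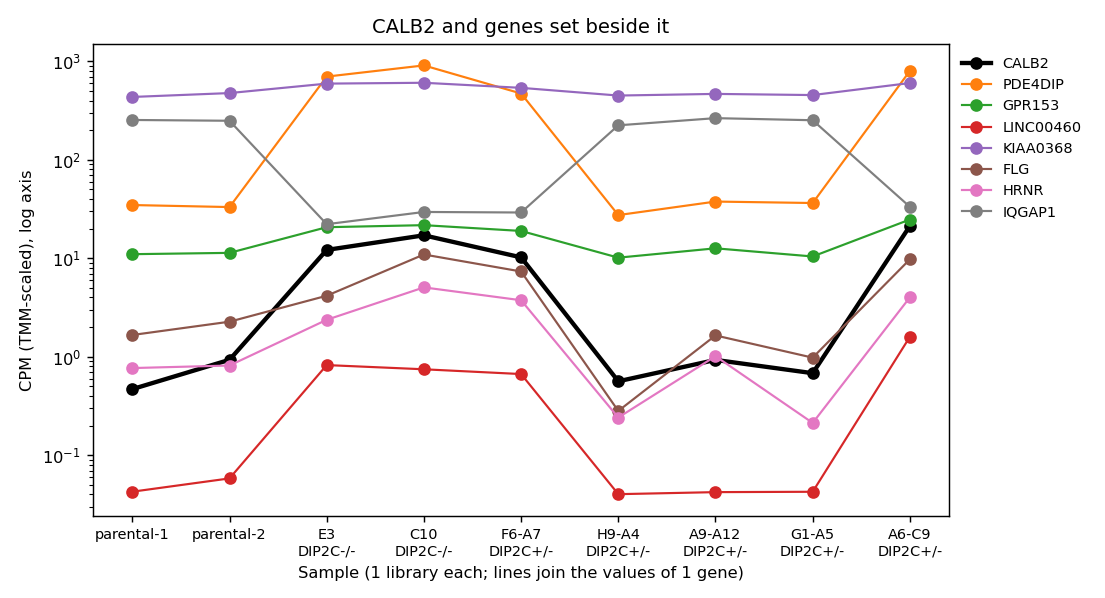
Level in CPM on a log axis of CALB2, of 4 of the 5 genes most like it and of FLG, HRNR and IQGAP1 in each of the 9 samples, with lines that join the values of 1 gene. KRTAP4-9 is not drawn because it was at 0 in 5 samples. CALB2 and PDE4DIP were high and IQGAP1 was low in E3, C10, F6-A7 and A6-C9.

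Of the 5 genes most like S100A16 by the same rule, 4 were BCAN (r of 0.989), MT2A (0.984), GSTM1 (0.984) and IFI16 (0.983). IFI16, an interferon-inducible DNA sensor, was at 19.3 and 23.4 CPM in parental RKO, at 112 to 241 CPM in the 6 high clones and at 0.322 CPM in H9-A4. All 4 genes had their lowest value in H9-A4, which weighs heavily in the correlation. The mesenchymal transcription factor ZEB1 was also above parental RKO in the same 6 clones and below it in H9-A4, though its order among the 6 was not that of S100A16. It was at 17.9 and 20.7 CPM in parental RKO, 52.8 to 119 CPM in the 6 high clones and 13 CPM in H9-A4. It made up most of the summed level of 4 mesenchymal markers, which was 21.2 to 23.4 CPM in parental RKO, 115 to 124 CPM in DIP2C-/- and 16.3 to 90.1 CPM in DIP2C+/-, while VIM, CDH2 and FN1 stayed under 4 CPM in every sample. Of these 4 markers 3 were tested, with 0 called in all 9 samples. ZEB1 was called in both comparisons without H9-A4, where 4.76% and 7.95% of all genes were. The part of these markers in the levels of S100A16 was not tested.

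**Figure D5:**
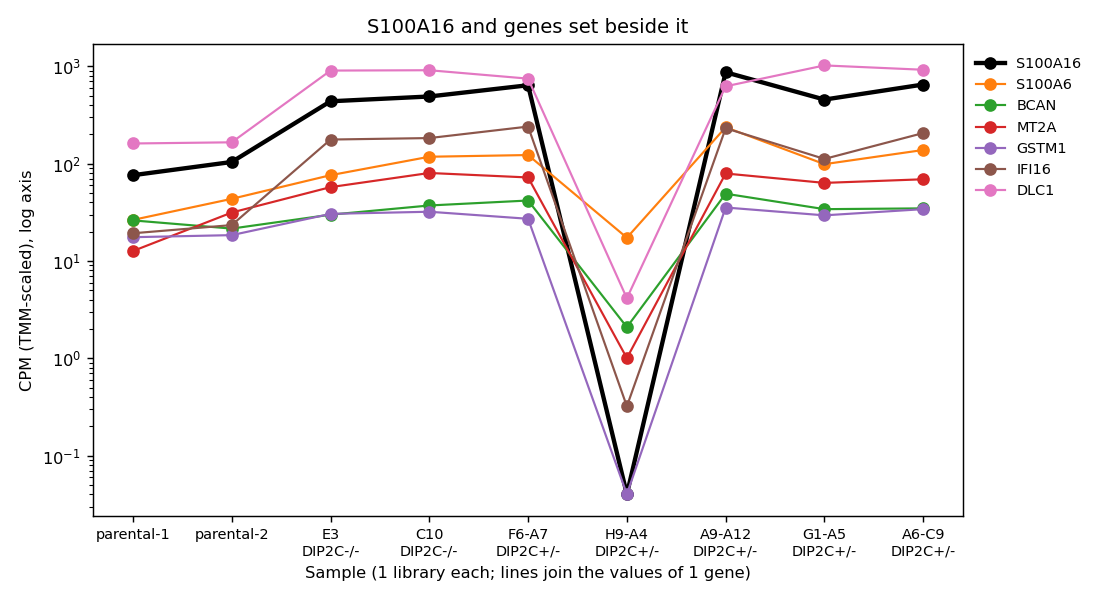
Level in CPM on a log axis of S100A16, of 4 of the 5 genes most like it and of S100A6 and DLC1 in each of the 9 samples, with lines that join the values of 1 gene. Every gene drawn had its lowest value in H9-A4, with 0.0403 CPM for S100A16, 0.322 CPM for IFI16 and 17.3 CPM for S100A6.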

How the data were processed

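Members and gene lists were chosen with earlier results of these data known. Total RNA of 9 samples was sequenced on the Ion Proton system, and per the labels reads were aligned to hg19 with TopHat2 2.0.4 and quantified with Cufflinks 2.2.1. The authors deposited estimated counts for each gene, and how they were scaled is not given in the sources used here. Among the low values of a sample, between 98.2% and 98.7% were whole multiples, within 1%, of what 1 read is worth, so read numbers were recovered. Higher values were not checked in this way, and their read numbers are rounded quotients. The design had assumed counts, and the estimated counts were rounded. Each sample summed to between 14772593 and 21486483 of these estimated counts.

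Genes were kept by filterByExpr (15532), scaled by TMM and fitted with 1 coefficient per group in edgeR 4.0.16 (R 4.3.3) with the quasi-likelihood F test and Benjamini-Hochberg adjustment over all genes tested. Standard errors are the size of the log2 fold change over the square root of F. Single clones were set against the parental mean on a log2 scale of CPM, prior count 2. Intervals of ratios are exact, at 95%, and cover counting error only. Samples of 1 group differed by more than sampling noise (chi-square per degree of freedom of 18 to 117.71), so each counts as 1. Counts were also simulated over 14956 genes from the real means, with 1 common spread for all genes and the same change in every clone. For DIP2C-/-, 82 of 100 genes changed by 2 on the log2 scale and 100 of 100 changed by 4 were recovered. For DIP2C+/- it was 95 and 100, and false calls numbered 9 and 8. Real genes differ in spread, so this recovery does not cover genes that split between clones, such as CALB2 and S100A16.

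The genes named were the 10 members, DIP2C, and from each other list up to 4 genes that averaged at least 1 CPM and had the largest change against parental RKO or any call, and the 5 genes most like CALB2 and S100A16. Some genes that the rule names are not reported here. Other genes of the lists were named after their values were seen. Alternatives were DESeq2 1.42.0, its size factors in edgeR, scaling by library size, no filter or at least 10 counts in every sample, only the groups compared, recovered reads, each sample left out, a prior count of 0.5 and a single parental reference. Positions are from GENCODE 44 mapped to GRCh37 and were found for all 10 members, and upstream sequences from RefSeq. Per-sample values were tabulated in Python 3.11.15 with pandas 2.3.3 and scipy 1.17.1.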

Additional observations from a re-analysis of the deposited data

Results flagged for a closer look

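H9-A4 was set apart from the other 4 DIP2C+/- clones in 4 of the 23 genes examined this way, each time as the lowest clone. CALB2 and S100A16 were left out, since their values in these clones chose the set, and most of the others were named for large differences in the same samples, so nothing is read from the count. The measure is the gap on the log2 CPM scale between the lowest clone and the next, divided by the range of the 5 clones, with a critical value of 0.71, which chance passes in about 1 in 20 groups. It was 0.785 for S100A2, where the log2 difference of H9-A4 from the parental mean was -5.7. It was 0.91 for DLC1 (log2 difference of -5.265), 0.788 for PLAT, the tissue plasminogen activator (-2.65), and 0.713 for LCP1 (-1.44).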

How the results depend on the processing

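The number of genes called depended on the samples and tool. For DIP2C-/- against parental RKO, 1 gene was called, with 297 by DESeq2, 3 without a filter, 0 with at least 10 counts in every sample, 1807 in a fit of only the 2 groups and 1 to 733 when each sample was left out in turn. For DIP2C+/- the 15 became 193 by DESeq2, 8 with at least 10 counts, 8 in a fit of only the 2 groups and 1 to 1224 with a sample left out. Between the genotypes the 0 became 6 by DESeq2, 1 in a fit of only the 2 groups and 0 to 3 with a sample left out. The highest left-out counts against parental RKO, 733 and 1224, were those without H9-A4. Of S100A2, S100A6, S100A11 and S100A13, 1 was called for DIP2C-/- in a fit of only the 2 groups, and 0 to 1 for DIP2C+/- with a sample left out, the 1 being S100A6 without H9-A4. With the second parental sample alone as reference, 4 members in place of 2 were past 2-fold in H9-A4.

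No direction turned other than by leaving out a sample. The log2 values ranged, for DIP2C-/- against parental RKO, from -0.011 to 0.486 for S100A11, -0.082 to 0.806 for S100A13, -1.08 to 2.37 for S100A2 and -2.67 to 0.41 for NPR1. For DIP2C+/- against parental RKO they ranged from -2.93 to 0.16 for NPR1, -0.59 to 0.11 for CREB3L4 and -0.208 to 0.0079 for SLC39A1. Between the genotypes they ranged from -0.013 to 0.248 for S100A11, -1.70 to 1.74 for S100A2, -0.042 to 0.740 for S100A6, -0.088 to 0.495 for S100A16, -0.076 to 0.459 for LCP1, -0.32 to 0.15 for CAPN2, -0.077 to 0.789 for GCA, -1.16 to 5.43 for ANXA1 and -0.259 to 0.083 for ANXA5. The cause was not tested.

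No paired analysis was possible because the replicate numbers of the clones only name them and do not tie a clone to a parental sample. The limits are 2 samples each in parental RKO and DIP2C-/-, 1 library per clone, and 4 members with 2 to 29 reads in all libraries, whose differences were not detectable at this depth.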

Other observations

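Some listed partners of S100 proteins that were named only after their values were seen also had H9-A4 apart from the other clones. AHNAK, a giant scaffold protein that binds S100A10 with ANXA2, was at 768 and 1449 CPM in parental RKO, at 974 and 1655 CPM in E3 and C10, at 1028 to 1589 CPM in 4 DIP2C+/- clones and at 333 CPM in H9-A4. BSG was highest in H9-A4, at 915 CPM, against 499 and 511 CPM in parental RKO and 712 to 806 CPM in the other clones. MDM2, a ubiquitin ligase, was at 275 and 279.6 CPM in parental RKO and at 389 to 896 CPM in every clone but H9-A4, which had 245 CPM.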
